A study of Mus musculus with 8 samples.

Results

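The RNA levels of 10 genes, Fgf21 and 9 genes of the integrated stress response, were followed in liver and colon of mice with non-alcoholic steatohepatitis (NASH) and of NASH mice given extracellular vesicles (EVs) from bovine colostrum. The genes were Fgf21, Trib3, Asns, Ddit3, Nupr1, Atf3, Atf4, Chac1, Sesn2 and Ppp1r15a. They were taken by NCBI gene identifier from a table of 45777 genes, and all 10 had a row. The labels gave 4 groups, NASH, NASH with EV low dose, NASH with EV high dose, and control, each with 1 liver and 1 colon library of total RNA, 8 libraries in all. Per the series design the EV mice were NASH mice. The labels do not state strain, sex, age, diet, how NASH was induced, feeding state, dose amounts, length of treatment, pooling of animals, or whether liver and colon came from the same animals. With 1 library per group there was no replicate, so each difference is one between 2 libraries, and it carries no error and no p-value.

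The integrated stress response is set off when one of several kinases phosphorylates the initiation factor eIF2, which lowers protein synthesis in general while the mRNA of the transcription factor ATF4 is translated more. ATF4 acts largely through its protein, so the level of Atf4 mRNA is only a partial readout, and its target genes are commonly read in its place. ATF4 pairs with C/EBP factors on composite DNA elements near genes for amino acid supply, stress signalling and feedback. FGF21 is a hormone that the liver secretes in fasting, on unbalanced diets and under cell stress, and its gene is known as a target of both ATF4 and the fatty acid receptor PPARA.

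The promoter letters were examined first, since such composite elements are known in several promoters of this pathway. Windows from 250 bases before to 50 bases after each gene's RefSeq start (build GRCm38.p6, the release behind mm10) were found for all 10 genes. The composite element was searched as TGATGNAA on both strands, where N is any base. It was present in 6 of the 10 genes, against 4.51% of 27025 genes with such a window. Positions are counted from +1 at the start, with -1 just before it. In Fgf21, Nupr1, Atf3 and Chac1 the match had the same 8 letters, TTGCATCA, which is the element read on the opposite strand. It began at -139 in Fgf21, -110 in Nupr1, -110 in Atf3 and -193 in Chac1. In Asns the match was TGATGAAA on the gene's own strand, from -23 to -16, and in Trib3 it was TTACATCA, downstream of the start, from 15 to 22. Ddit3, Atf4, Sesn2 and Ppp1r15a had no match in this window, which says only that these letters are not there. A match is a run of letters and not a measured binding site.

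The Fgf21 promoter is shown whole over the 250 bases before the start (chr7:45615491-45615740, minus strand, 5′ to 3′ along the gene), because Fgf21 had the largest ratio among the 10 genes in the NASH liver. Its first run of capitals is the composite element and its second is an E-box with flank, searched as CCACGTG on both strands and held by 4.41% of genes.
Fgf21: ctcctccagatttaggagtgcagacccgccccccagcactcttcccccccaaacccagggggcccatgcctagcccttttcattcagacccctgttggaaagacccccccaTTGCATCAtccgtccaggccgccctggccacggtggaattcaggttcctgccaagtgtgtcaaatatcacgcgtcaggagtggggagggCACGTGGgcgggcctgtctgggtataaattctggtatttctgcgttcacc
The stretches around the other matches are shown for comparison, with the composite element in capitals. They lie on GRCm38.p6 at chr7:126625543-126625610 (minus strand) for Nupr1, chr1:191183406-191183473 (minus) for Atf3, chr2:119351019-119351086 (plus) for Chac1, chr6:7693210-7693262 (minus) for Asns and chr2:152344032-152344053 (minus) for Trib3.
Nupr1: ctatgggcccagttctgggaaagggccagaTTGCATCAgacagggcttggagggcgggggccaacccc
Atf3: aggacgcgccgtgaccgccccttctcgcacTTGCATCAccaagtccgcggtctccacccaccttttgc
Chac1: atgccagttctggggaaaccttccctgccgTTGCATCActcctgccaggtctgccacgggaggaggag
Asns: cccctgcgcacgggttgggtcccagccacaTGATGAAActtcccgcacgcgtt
Trib3: ctcaggtTTACATCAgccgggc
The 8 letters in capitals were identical in the first 3 of these lines and in Fgf21, while the bases around them were not. Of the other motifs searched, the E-box with flank was also in Nupr1, from -226 to -220. The cAMP response element, TGACGTCA, was in Ppp1r15a, from -12 to -5, and in 2.03% of all genes. The endoplasmic reticulum stress element was in 0 of the 10 genes and in 0.137% of all genes. None of these matches overlapped another.

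**Figure D1:**
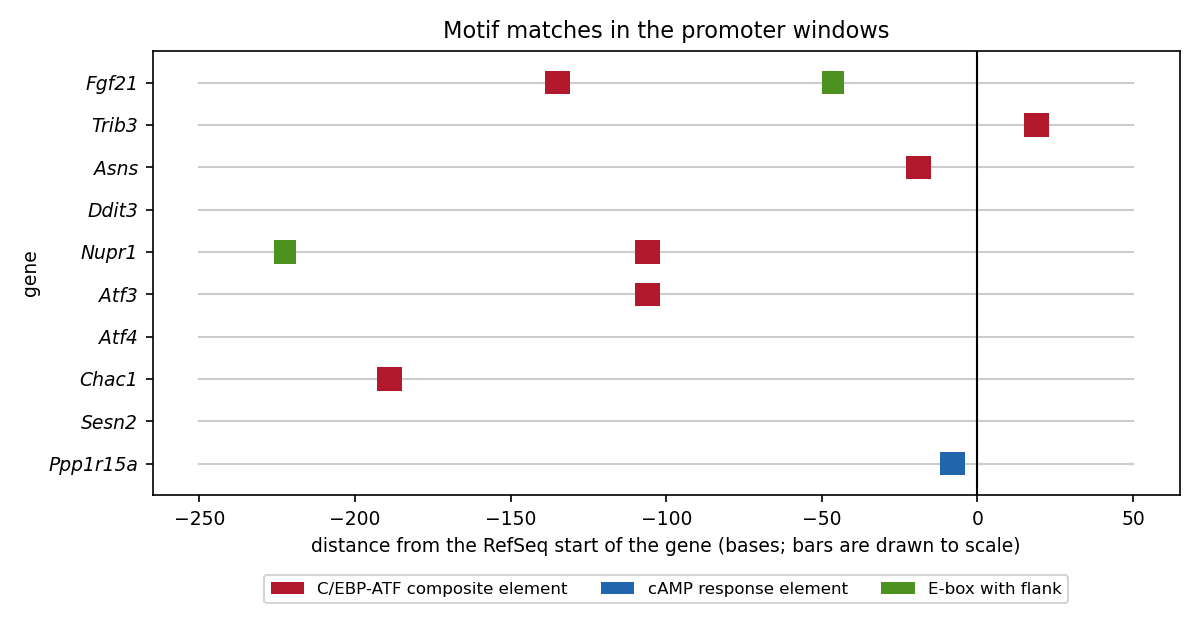
Matches to 3 motifs in the RefSeq promoter windows of the 10 genes, by distance in bases from the gene start (vertical line). The composite element lies before the start in Fgf21, Nupr1, Atf3, Chac1 and Asns and after it in Trib3, and Ddit3, Atf4 and Sesn2 have no match.

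The unit was FPKM, a fragment count scaled by transcript length and by mapped reads, so levels can be set beside each other per length, but the depth of sequencing is unknown. The liver libraries had 10469 to 12420 genes at 1 FPKM or more and the colon libraries 13863 to 14480. The 7 hepatocyte markers summed to 32264 to 40234 FPKM in liver and to 47.8 to 78.9 FPKM in colon, and the 8 colon epithelium markers to 3.02 to 4.65 FPKM in liver and 3506 to 4122 FPKM in colon, which goes with the labelled tissues. Some colon libraries stood apart by RNA of neighbouring organs. The 8 seminal vesicle and prostate markers summed to 15620 FPKM in the colon NASH library and were all at 0 in the EV low dose, EV high dose and control colons. The 14 pancreatic acinar markers summed to 95.1 FPKM in NASH, 139 in EV low dose, 3797 in EV high dose and 293 in control colon. The 6 adipocyte markers summed to 292, 135, 62.6 and 85.4 FPKM in the same order. The part of such RNA in the colon results was not tested.

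Ratios are differences of log2(FPKM + 1) between 2 libraries, less the median difference of all genes kept in that tissue, which had 1 FPKM or more in at least 1 of its 4 libraries (12866 genes in liver, 15245 in colon). The median gene stood at 0.55 in liver NASH over control, at -0.14 for the low and -0.13 for the high EV dose over NASH, and within 0.08 of 0 in colon. The added 1 FPKM makes ratios of genes with low values smaller than their FPKM fold. All 10 genes were kept in liver, where Fgf21 and Atf3 passed through the NASH and EV libraries, being under 1 FPKM in control. In colon 7 were kept, and Fgf21, Trib3 and Chac1 were not.

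**Figure D2:**
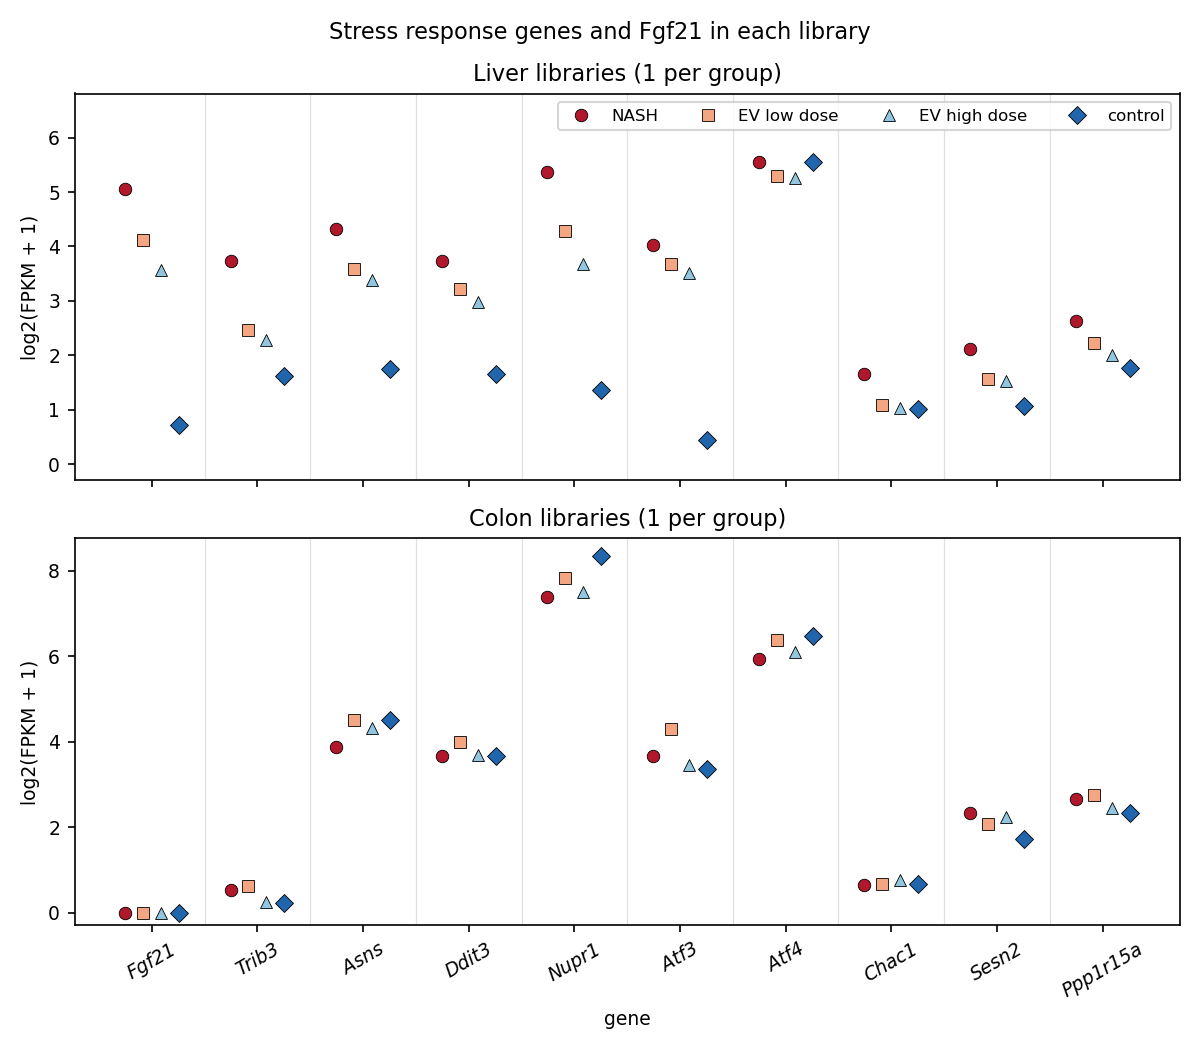
Level of each gene in each library as log2(FPKM + 1), liver above and colon below, with 1 point per library and no replicates. In liver all genes but Atf4 stand in the order NASH, EV low dose, EV high dose, control from high to low, and in colon Fgf21 is listed at 0 throughout.

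In the NASH liver the hormone Fgf21 and 5 of the 9 stress genes were 2-fold or more higher than in the control liver, and no gene was 2-fold lower. Among all kept liver genes 7.21% were 2-fold higher and 7.66% lower. The median ratio of the 10 genes was 1.54, against 0 for all kept genes by construction. Fgf21, Nupr1 and Atf3 led at ratios over 3, Asns, Trib3 and Ddit3 followed at 1.53 to 2.02, and Sesn2, Ppp1r15a, Chac1 and Atf4 stayed within 2-fold. Over all settings tried the ratio ran from 2.43 to 4.74 for Fgf21, from 2.50 to 4.31 for Nupr1 and from 1.64 to 4.39 for Atf3, lowest with 5 FPKM added in place of 1. In bulk RNA, more cells of a type and more RNA per cell cannot be told apart.

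Fgf21 (gene ID 56636, chr7:45613890-45615490) was at 32.1 FPKM in the NASH liver, 16.4 in EV low dose, 10.9 in EV high dose and 0.641 in the control liver. The NASH library was thus the highest, both EV libraries lay between NASH and control, and both were closer to NASH on the log scale. NASH over control was 50.2-fold in FPKM and 3.78 as a log2 ratio relative to the median gene, above 99.9% of kept genes. EV low dose over NASH was 0.511-fold in FPKM (log2 -0.79) and EV high dose over NASH was 0.340-fold (log2 -1.34). The high dose library thus passed the 2-fold line against NASH and the low dose library did not, while the ratio of the high to the low dose was -0.55. Against control, Fgf21 was still at 3.02 with the low and at 2.48 with the high dose of EVs.

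Of the transcription factors, Nupr1 (gene ID 56312, chr7:126623246-126625470), a small chromatin-associated protein induced by many stresses, had the profile nearest to that of Fgf21. Nupr1 was at 40.4 FPKM in the NASH liver, 18.6 in EV low dose, 11.8 in EV high dose and 1.56 in the control liver. Its log2 ratio was 3.46 for NASH over control, -0.94 for EV low dose over NASH and -1.56 for EV high dose over NASH. The last was the lowest ratio of the 10 genes, with 0.0311% of kept genes below it. A predicted gene, Gm39087, overlaps Nupr1, and whether the authors' counting used strand is not stated.

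Atf3 (gene ID 11910, chr1:191170296-191183333) encodes a factor of the ATF family that is induced early in stress and by inflammatory signals. It was at 15.3 FPKM in the NASH liver, 11.8 in EV low dose, 10.5 in EV high dose and 0.351 in the control liver. Against control it had a log2 ratio of 3.04 for NASH, 2.85 for the low and 2.70 for the high EV dose. The EV libraries differed little from NASH, at -0.22 for the low and -0.38 for the high dose. Atf3 thus stayed near its NASH level in both EV livers, where Fgf21 did not.

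Ddit3 (gene ID 13198, chr10:127290793-127296291), which encodes CHOP, a factor that promotes cell death under lasting stress, was at 12.3 FPKM in the NASH liver, 8.34 in EV low dose, 6.87 in EV high dose and 2.14 in the control liver. Its log2 ratio was 1.53 for NASH over control, -0.37 for EV low dose over NASH and -0.62 for EV high dose over NASH. Ddit3 overlaps Mbd6 and Mars1, and Mars1, a tRNA synthetase gene, had a ratio of -0.30 for NASH over control.

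Atf4 itself (gene ID 11911, chr15:80255184-80257545) was at 45.8 FPKM in the NASH liver, 38.4 in EV low dose, 37.3 in EV high dose and 46.0 in the control liver. NASH and control were level in FPKM, and both EV libraries were slightly lower. Its log2 ratio of NASH over control was -0.56 relative to the median gene, -0.01 as deposited and 0.37 with each library scaled to the same summed FPKM, so its direction depended on the scaling. In that sum 5 small RNA genes made up 49.7% in the NASH liver and 54.9% in the control liver, so scaling to it depends largely on them. Atf4 stood apart from the other 9 genes by having no higher value in the NASH than in the control liver.

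Of the enzymes, Asns (gene ID 27053, chr6:7675165-7693209), asparagine synthetase, a standard target of ATF4, was at 19.1 FPKM in the NASH liver, 10.97 in EV low dose, 9.44 in EV high dose and 2.37 in the control liver. Its log2 ratio was 2.02 for NASH over control, -0.61 for EV low dose over NASH and -0.81 for EV high dose over NASH. Chac1 (gene ID 69065, chr2:119351242-119354326), which breaks down glutathione, was at 2.17 FPKM in NASH, 1.13 in EV low dose, 1.05 in EV high dose and 1.01 in control liver. Both EV livers and the control liver were thus about level for Chac1 and the NASH liver higher by 2.15-fold in FPKM, but relative to the median gene the log2 ratio was 0.10, and it ran from -0.03 to 0.88 over the alternative settings.

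Of the regulators, Trib3 (gene ID 228775, chr2:152337425-152344060), a pseudokinase that restrains ATF4 and AKT signalling, was at 12.3 FPKM in the NASH liver, 4.54 in EV low dose, 3.84 in EV high dose and 2.09 in the control liver. Both EV libraries were nearer to control than to NASH. The log2 ratio was 1.56 for NASH over control, -1.13 for EV low dose over NASH and -1.33 for EV high dose over NASH. Against control Trib3 was at 0.46 with the low and 0.27 with the high dose, within 2-fold.

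Sesn2 (gene ID 230784, chr4:132492804-132510456), a leucine sensor that restrains mTORC1, was at 3.35 FPKM in NASH, 1.96 in EV low dose, 1.89 in EV high dose and 1.11 in control liver. Its log2 ratio of NASH over control was 0.50 relative to the median gene and 1.05 as deposited. Ppp1r15a (gene ID 17872, chr7:45522917-45526268), the GADD34 subunit through which the cell removes the phosphate from eIF2, was at 5.20 FPKM in NASH, 3.68 in EV low dose, 3.02 in EV high dose and 2.38 in control liver, with a log2 ratio of 0.32 for NASH over control. It overlaps Tulp2. In FPKM both regulators kept the order of the other genes apart from Atf4, with a smaller span between the NASH and control livers than Trib3. Relative to the median gene, EV high dose over control was at 0.07 for Sesn2 and at -0.13 for Ppp1r15a, so for Ppp1r15a the order depended on the scaling.

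**Figure D3:**
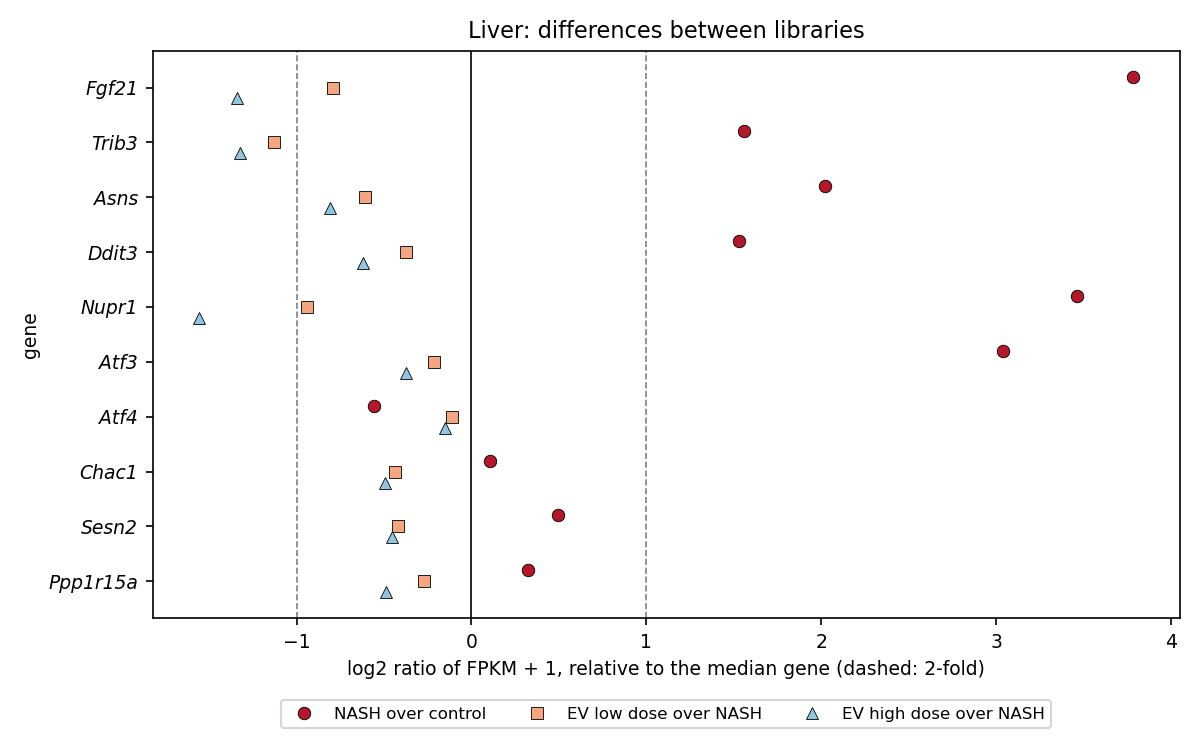
Log2 ratios of FPKM + 1 relative to the median gene in liver for NASH over control and for each EV dose over NASH, 1 library per group, with dashed lines at 2-fold. Fgf21, Nupr1, Atf3, Asns, Trib3 and Ddit3 lie beyond 2-fold in NASH over control, Trib3 at the low dose, and Nupr1, Fgf21 and Trib3 at the high dose.

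Among the 10 genes, 1 was 2-fold or more lower in the EV low dose than in the NASH liver (Trib3) and 0 were higher, where 0.225% of all kept genes were lower and 0.443% higher. Their median ratio was -0.43, against 0 for all kept genes by construction. In the EV high dose liver 3 were 2-fold or more lower than in NASH (Nupr1, Fgf21 and Trib3) and 0 were higher, where 0.373% of all kept genes were lower and 0.816% higher, and the median was -0.56. Between the doses none of the 10 passed 2-fold, with a median ratio of high to low dose of -0.20, and 0.303% of kept genes were higher and 0.163% lower. Both ratios of EV over NASH, and that of NASH over control, use the same NASH library and are not independent.

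The EV libraries can also be set against control, which does not use the NASH library, though both doses then share the control library. In EV low dose over control 5 genes were 2-fold or more higher (Fgf21 at 3.02, Atf3 at 2.85, Nupr1 at 2.55, Asns at 1.44 and Ddit3 at 1.18) and 0 lower, where 6.5% of kept genes were higher and 5.69% lower. In EV high dose over control 4 were higher (Atf3 at 2.70, Fgf21 at 2.48, Nupr1 at 1.94 and Asns at 1.25) and 0 lower, where 6.28% of kept genes were higher and 5.14% lower. Ddit3 was at 0.94 in EV high dose over control, just inside 2-fold, and past it in 5 of 9 settings, among them the values as deposited (1.32).

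Cell type markers also differed between the liver libraries, though not all in the same order. The 6 macrophage markers summed to 740 FPKM in the NASH liver, 713 in EV low dose, 776 in EV high dose and 117 in control. Their sum was thus about level across the NASH and EV livers and lower in control. In NASH over control 6 of 6 were 2-fold higher, where 7.21% of all kept liver genes were higher. The 6 neutrophil markers summed to 67.2 FPKM in NASH, 18.1 in EV low dose, 18.8 in EV high dose and 4.35 in control. Of the 5 kept, 4 were 2-fold lower in each EV liver than in NASH. Among all kept liver genes 0.225% were 2-fold lower at the low and 0.373% at the high dose. Camp, Ngp and Retnlg reached 1 FPKM only in the NASH liver, so they were kept only through the library where they were high. None of the 6 was at 0 in NASH, against 2 in EV low dose, 3 in EV high dose and 3 in control, and Camp, a neutrophil granule peptide, was at 3.29 FPKM in NASH and at 0 in the other livers. The 6 stellate cell and fibroblast markers summed to 299 FPKM in NASH, 266 in EV low dose, 279 in EV high dose and 74.7 in control. That sum rests largely on Dcn, at 185, 180, 199 and 62.5 FPKM in this order. Col1a1 was at 14.6, 7.95, 5.91 and 0.516 FPKM. It, Col3a1 and Pdgfrb stood in the order NASH, EV low dose, EV high dose, control from high to low, while Dcn, Lrat and Pdgfra did not. Of the 6, 1 was 2-fold lower in EV high dose than in NASH and 0 in EV low dose. The hepatocyte markers summed to 33172 FPKM in NASH, 32275 in EV low dose, 32264 in EV high dose and 40234 in control. Relative to the median gene 3 of 7 were 2-fold or more lower in NASH than in control and 0 higher. Among all kept liver genes 7.66% were lower and 7.21% higher. In FPKM Trf, at 9876 in NASH and 5661 in control, and Apob, at 1184 and 795, were higher in NASH. The part of these cell types in the stress gene values was not tested.

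The genes nearest to Fgf21 over the 4 liver libraries were ranked among 7173 genes by the root mean square difference of centred log2 profiles. Nupr1 was nearest of all at 0.207 log2 units. Outside the 10 genes, the nearest were Mfsd2a, a carrier of lysophospholipids, at 0.312, Osbpl3, an oxysterol-binding protein, at 0.316, the predicted gene Gm42031 at 0.345, Cgref1 at 0.349 and Slpi, an inhibitor of leukocyte proteases, at 0.354. Mfsd2a was at 69.0 FPKM in the NASH liver, 59.0 in EV low dose, 42.8 in EV high dose and 4.28 in control. Atf3 came in place 7 at 0.358 and Asns in place 141 at 0.687, while Trib3 was in place 650 and Atf4 in place 6066. The ranking describes 4 libraries of which 1 is a control, and it is given as a description.

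The wider pathway was read from 9 gene lists, with the 10 genes left out, for NASH over control in liver. As a background, 7.21% of all kept liver genes were 2-fold higher and 7.66% lower, so that 1 or 2 genes of a list of 10 to 20 is near the background. In the eIF2 kinases and eIF2 machinery 0 of 17 genes were past 2-fold, with a median of 0.08. Eif2ak3, the kinase PERK of the endoplasmic reticulum, was at 8.08 FPKM in NASH and 2.47 in control, a log2 ratio of 0.84, with Eif2ak2 at 0.58 and Impact at 0.57. In the ATF4 partners and other stress factors 1 of 19 kept genes was higher and 1 lower, with a median of 0.49. These were Gdf15, a stress hormone, at 12.1 FPKM in NASH and 3.45 in control (log2 1.01), and Chac2, a relative of Chac1, at 10.6 in NASH and 19.4 in control (log2 -1.37). Ddit4, which restrains mTORC1, was at 5.48 FPKM in NASH and 1.22 in control, just inside 2-fold relative to the median gene.

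The serine, glycine and one-carbon enzymes split in NASH over control, with 4 of 13 kept genes 2-fold higher, 4 lower and a median of 0.63. Psat1, of serine synthesis, was at 7.94 FPKM in the NASH and 0.296 FPKM in the control liver (log2 2.23), and Pck2, the mitochondrial PEP carboxykinase, at 5.79 in NASH and 0.426 in control (log2 1.70). Cbs, which starts the conversion of homocysteine to cysteine, was at 53.3 in NASH and 137 in control (log2 -1.90). Of the amino acid carriers 1 of 7 was higher, the glycine carrier Slc6a9, at 13.4 in NASH and 2.93 FPKM in control (log2 1.32), with Slc3a2 at 0.61, Slc38a2 at 0.03 and a median of 0.59. Of the cytosolic tRNA synthetases 2 of 18 were higher, Gars at 1.19 and Vars at 1.05, and 1 was lower, Tars at -1.29, with a median of 0.33.

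The ATF6 and IRE1 branch of the unfolded protein response, which drives chaperones rather than ATF4 targets, had 0 of 20 genes higher and 1 lower, with a median of -0.19. That gene was Sdf2l1, a partner of chaperones, at -1.09, while Calr stood at -0.86 and Dnajb9 at 0.57. The mitochondrial stress response had 1 of 10 higher, which was Gdf15 again, with the protease Lonp1 at 0.98, the chaperonin Hspe1 at -0.75 and a median of 0.14. Of the FGF21 receptors and control genes 0 of 14 were higher and 2 lower, with a median of -0.06. These were Klb, the co-receptor that FGF21 needs, at 8.69 FPKM in NASH and 13.2 FPKM in control (log2 -1.10), and Mlxipl, the sugar-sensing factor ChREBP, at 12.1 in NASH and 23.9 in control (log2 -1.48). In FPKM both were less than 2-fold lower, as were Sdf2l1 here and Chac2 and Tars above. Their counts as lower thus rest on the scaling, since the median gene stood at 0.55. Fgf1 stood at -0.81. PPARA targets had 8 of 18 higher and 1 lower, with a median of 0.59. Among them Acot2 was at 29.5 FPKM in NASH and 1.86 in control (log2 2.86), Vnn1 was at 1.77, and Fabp1 was the one lower, at -1.85.

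In EV low dose over NASH no gene of these 9 lists passed 2-fold in liver, where 0.225% of all kept genes were lower and 0.443% higher. List medians ran from -0.30 for the amino acid carriers to 0.09 for PPARA targets. In EV high dose over NASH they ran from -0.35 for the serine, glycine and one-carbon enzymes to 0.09 for the mitochondrial stress response. The gene past 2-fold there was Atf5, a factor close to ATF4 that stands in both the partner and the mitochondrial list and is named for its value. It was at 19.0 FPKM in EV high dose and 43.3 in NASH (log2 -1.01). Among all kept liver genes 0.373% were lower and 0.816% higher in that comparison. The list counts at both doses are thus near the background. The medians of the 10 genes, at -0.43 and -0.56, lay below those of all 9 lists in both comparisons. In NASH over control their median, 1.54, lay above those of all 9 lists. The 10 genes and the lists were chosen with earlier results of these data known, so these places are given as a description. All these ratios share the 1 NASH library, so the low place is not independent of the high one. Of the genes named above as 2-fold higher in NASH than in control, Psat1 was at -0.42 for the low and -0.80 for the high dose over NASH. In the same order Slc6a9 was at -0.46 and -0.77, and Vars at -0.70 and -0.95. The others moved less, with Pck2 at -0.27 and -0.58, Gars at -0.24 and -0.44, and Gdf15 at -0.13 and -0.30. Acot2 was at -0.10 and -0.43, and Vnn1 was higher than in NASH, at 0.25 for both doses.

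**Figure D4:**
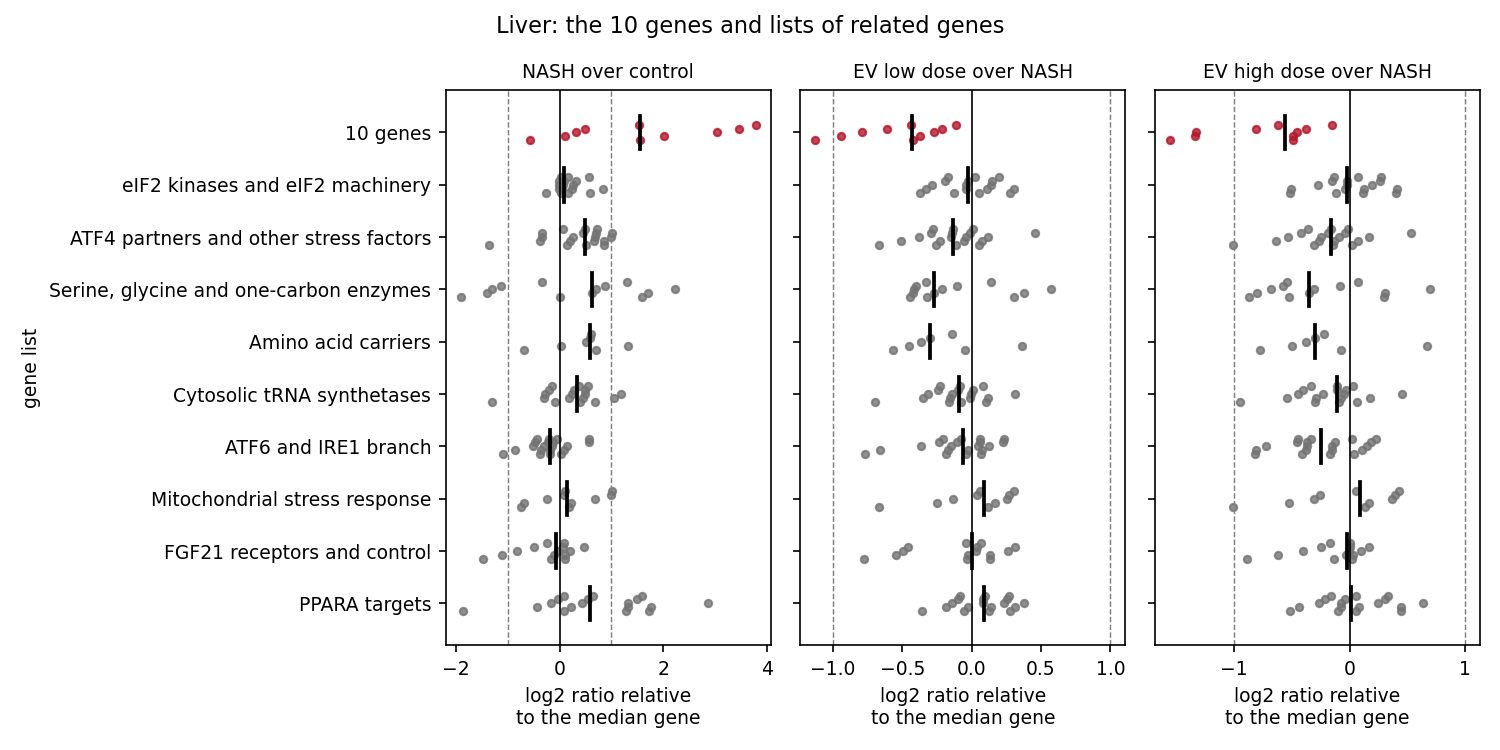
Log2 ratios of FPKM + 1 relative to the median gene in liver for the 10 genes (top, red) and the kept genes of 9 pathway lists without them (grey), with the median of each as a black bar and dashed lines at 2-fold. List medians for NASH over control lie between -0.19 for the ATF6 and IRE1 branch and 0.63 for the serine, glycine and one-carbon enzymes, and EV over NASH medians lie between -0.35 and 0.09.

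In colon none of the 7 genes kept was 2-fold higher in NASH than in control. Fgf21 was listed at 0 FPKM in all 4 colon libraries, so no ratio can be given. Trib3 was at 0.453 FPKM in the NASH colon, 0.549 in EV low dose, 0.183 in EV high dose and 0.161 in control, and Chac1 was at 0.557, 0.586, 0.693 and 0.600 FPKM in the same order. These 3 genes were thus under 1 FPKM throughout.

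Of the 7 genes kept in colon, 1 was 2-fold or more lower in NASH than in control and 0 were higher, with a median of -0.05, where 2.26% of all kept colon genes were lower and 2.12% higher. That gene was Nupr1, at 167 FPKM in the NASH colon, 227 in EV low dose, 182 in EV high dose and 324 in control. The NASH and both EV libraries lay below control, and NASH over control was -1.01, at the 2-fold line. As deposited it was -0.95, within 2-fold. Without the NASH library, which held the seminal vesicle RNA, Nupr1 over control was at -0.50 with the low and -0.90 with the high dose.

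Asns was at 13.8 FPKM in the NASH colon, 21.7 in EV low dose, 19.0 in EV high dose and 22.0 in control, so that the NASH library was the lowest. Atf4 was at 60.7, 82.4, 67.7 and 87.3 FPKM in the same order, again lowest in NASH. The log2 ratio of NASH over control was -0.69 for Asns and -0.58 for Atf4, both within 2-fold. Atf3 was at 11.8 FPKM in NASH, 18.7 in EV low dose, 9.92 in EV high dose and 9.25 in control, with the EV low dose library apart from the other three. Ddit3 ran from 11.6 to 14.8 FPKM, Sesn2 from 2.28 to 4.05 FPKM and Ppp1r15a from 4.07 to 5.74 FPKM over the 4 colon libraries.

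In EV low dose over NASH 0 of the 7 colon genes passed 2-fold, with a median of 0.49 and the highest value at Atf3 (0.68), where 1.06% of kept genes were higher and 1.61% lower. In EV high dose over NASH 0 of 7 passed, with a median of 0.01, where 1.08% were higher and 1.48% lower. Between EV high and low dose 0 of 7 passed, with a median of -0.36 and the lowest value at Atf3 (-0.93), where 0.728% were higher and 0.794% lower. Against control, 0 of 7 passed in EV low dose, where 1.15% were higher and 1.73% lower, and 0 of 7 in EV high dose, where 1.12% were higher and 1.59% lower.

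**Figure D5:**
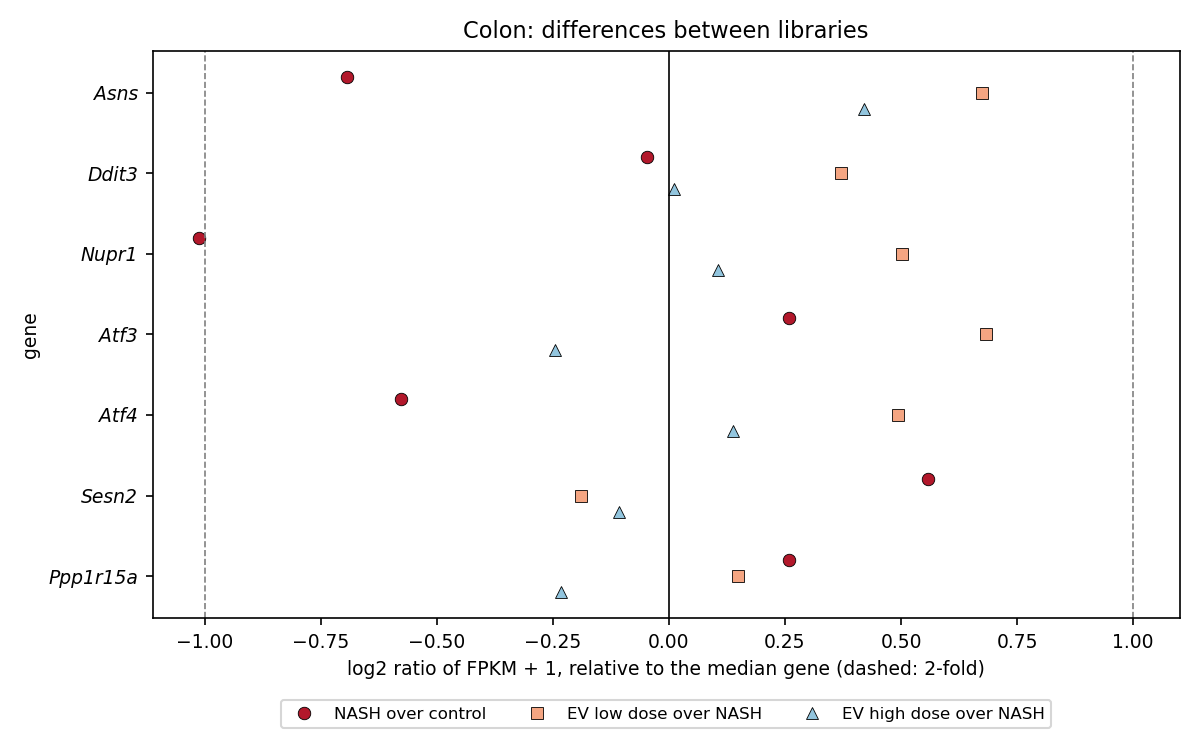
Log2 ratios of FPKM + 1 relative to the median gene in colon for the 7 kept genes, 1 library per group, with dashed lines at 2-fold. All ratios lie within 2-fold apart from Nupr1 in NASH over control, which sits on the line at -1.01.

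Nupr1 differed widely between the tissues. In the control group it was at 1.56 FPKM in liver and 324 FPKM in colon, a log2 ratio of -6.15, and in the NASH group at 40.4 FPKM in liver and 167 FPKM in colon, a ratio of -1.59. In liver over colon of control mice 4 of the 10 genes were 2-fold or more lower (Nupr1, Atf3, Asns and Ddit3) and 3 higher (Trib3, Fgf21 and Chac1), where 15.9% of genes kept in either tissue were lower and 15.8% higher. In NASH mice 1 was lower and 3 higher, where 14.7% of genes were lower and 16.5% higher. In EV low dose 1 was lower and 2 higher, where 14.8% were lower and 16.6% higher, and in EV high dose 1 was lower and 2 higher, where 15.4% were lower and 16.7% higher. Fgf21 stands on the higher side in these counts with 0 in colon, and in the control group it was at 0.641 FPKM in liver, so there its count rests on the added 1 FPKM and the scaling. The count of Chac1 in the control group, at 1.01 FPKM in liver and 0.600 FPKM in colon, rests on the scaling too, since the median gene stood at -0.84.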

How the data were processed

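Total RNA of mouse liver and colon was extracted with TRIzol and RNeasy Plus columns, and TruSeq Stranded Total RNA Gold libraries were made, per the labels' protocols. The authors deposited 1 table of FPKM for 45777 NCBI gene identifiers and 8 libraries. Trimmomatic 0.38, HISAT2, StringTie and mm10 are named per the submitters' processing notes, with their order, read depth and use of strand not given in the sources used here. By the commonest ratio among low values, 1 read was worth 1.11 to 1.96 times as much FPKM in the other libraries as in the control liver, but only 15 to 29 genes stood at that ratio, so reads were not recovered.

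Symbols came from RefSeq GRCm38.p6 and were found for 45679 identifiers. The log2 ratios were computed from the deposited FPKM as differences of log2(FPKM + 1), relative to the median gene kept at 1 FPKM or more in at least 1 library of the tissue. A value was counted as apart at 2-fold. With 1 library per group no test was run. The 10 genes and all gene lists were chosen with earlier results of these data known. The 9 pathway lists name up to 3 genes each, with the largest ratios of NASH over control in liver at 5 FPKM or more. The 5 genes most like Fgf21 were named by profile. Of the list genes 249 were matched by symbol, 2 by a synonym and 1 was not. Promoter windows were the RefSeq ones of GRCm38.p6. Alternatives were a pseudocount of 0.1 or 5 FPKM, values as deposited, median-of-ratios scaling, equal summed FPKM over all or protein-coding genes, no filter and a filter at 5 FPKM. The code was tested on simulated libraries. Python 3.11.15, numpy 2.4.6, pandas 2.3.3 and matplotlib 3.10.9 were used.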

Additional observations from a re-analysis of the deposited data

Results flagged for a closer look

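Of 42 ratios of kept genes that can be given in both tissues, 20 had opposite signs in liver and colon, and 4 of them were 1.5-fold or more from the median gene in both tissues. With 1 library each, the difference was not tested. Asns in NASH over control was at 2.02 in liver and -0.69 in colon, a difference of 2.72 on the log2 scale. Asns in EV low dose over NASH was at -0.61 in liver and 0.68 in colon, a difference of -1.28. Nupr1 in NASH over control was at 3.46 in liver and -1.01 in colon, a difference of 4.47, and in EV high dose over control at 1.94 in liver and -0.90 in colon, a difference of 2.85. The colon NASH library held seminal vesicle RNA and the colon EV high dose library held pancreatic acinar RNA, and their part in these values was not tested.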

How the results depend on the processing

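The 24 counts of the 10 genes were recomputed under 8 alternatives, but 18 of them were 0. Of 48 alternative values for the other 6 counts, 12 moved by over 1.5 times, and 2 of 144 did for the counts at 0. Of the single-gene ratios 39 moved and 759 did not, and of the list medians 38 moved and 934 did not. In liver NASH over control, Fgf21, Nupr1, Atf3, Asns and Trib3 stayed 2-fold higher under every setting, Ddit3 was at 0.99 with a pseudocount of 5 FPKM, and 5 to 8 genes were higher. In EV high dose over control Ddit3 passed 2-fold in 5 of 9 settings. In EV low dose over NASH in liver the count lower, 1 as given, was 2 as deposited, 3 with equal summed FPKM, 2 with equal protein-coding sums, 2 with no filter and 0 with a pseudocount of 5 FPKM. In EV high dose over NASH it was 2 to 4. EV low dose over control in liver had 3 higher with a pseudocount of 5 FPKM. In colon NASH over control the count lower was 0 as deposited, with equal sums, with equal protein-coding sums, with no filter, with a filter at 5 FPKM and with a pseudocount of 5 FPKM. With a pseudocount of 0.1 FPKM, Atf3 made 1 higher in colon EV low dose over control and 1 lower in EV high dose over EV low dose. The cause of these moves was not tested, apart from the scaling: without a filter the median gene is 0, so that setting equals the values as deposited. Among kept liver genes past 2-fold, the share higher in NASH over control was 48.5% as given and 86.4% as deposited, in EV low dose over NASH 66.3% and 44.9%, and in EV high dose over NASH 68.6% and 43.3%. Leaving out a replicate was not possible. No paired analysis was possible because each group had 1 library per tissue, so that no 2 groups of a tissue shared more than 1 replicate. Depth is unknown, which limits the genes near 1 FPKM, Chac1, Sesn2 and Atf3 and Fgf21 in control liver, most.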

Other observations

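Targets of PPARA were also apart between colon libraries, and the genes named here were chosen after their values were seen. In the NASH colon 4 of 16 kept targets were 2-fold or more higher than in control and 0 lower, where 2.12% of all kept colon genes were higher and 2.26% lower. Acaa1b, a peroxisomal thiolase, was at 12.0 FPKM in the NASH colon and 2.86 in control, and Vnn1, a pantetheinase, at 4.35 in NASH and 0.790 in control. Pdk4, which restrains pyruvate oxidation, was at 4.97 in NASH and 1.10 in control, and Angptl4, an inhibitor of lipoprotein lipase, at 4.85 in NASH and 1.56 in control. In the EV high dose colon 4 targets were 2-fold lower than in NASH and 1 was higher, where 1.48% of all kept genes were lower and 1.08% higher. Acaa1b was at 4.25 FPKM there, Vnn1 at 1.47, Pdk4 at 1.53 and Angptl4 at 1.21, in a comparison that shares the NASH library. The 1 higher was Fabp1, at 1.49 FPKM in the NASH and 4.39 in the EV high dose colon. In the EV low dose colon 0 of 16 were 2-fold higher and 0 lower than in NASH, with a median of -0.01. Among all kept colon genes 1.06% were higher and 1.61% lower there, so a count of 0 is near the background. Ppara itself was at 12.5 FPKM in the NASH colon, 7.85 in EV low dose, 8.97 in EV high dose and 3.55 in control. Adipocyte markers summed to 292 FPKM in the NASH colon and 85.4 in control, and their part in these values was not tested.

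The composite element searched as TGATGNAA was in the windows of 5 of 11 cytosolic tRNA synthetase genes with a window (Aars, Gars, Iars, Tars and Yars), in 2 of 7 amino acid carriers (Slc7a11 and Slc1a4), in 3 of 18 ATF4 partners and other stress factors, in 2 of 13 serine, glycine and one-carbon enzymes and in 1 of 14 genes of the eIF2 machinery. It was in 0 of 17 genes of the ATF6 and IRE1 branch, 0 of 8 of the mitochondrial stress response, 0 of 13 FGF21 receptors and control genes and 0 of 12 PPARA targets. The share over all genes was 4.51%, so a count of 0 in lists of this size is near it. Each count is over the genes of its list that had a window, whether or not they were kept in liver. These were fewer than the full list in each case. Of the tRNA synthetases, Gars was at 38.0 FPKM in the NASH liver and 10.7 FPKM in the control liver, while Tars was at 24.0 in NASH and 40.8 in control.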
